A study of Homo sapiens with 9 samples.

Results

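A set of 8 genes that separate epithelial from mesenchymal and basal cells was followed through 6 lists of chromatin regions from LNCaP cells. LNCaP, a cell line from a human prostate cancer, has luminal features and responds to androgen. The genes, with their hg19 positions, were CDH1 (chromosome 16, 68771195 to 68869444), CDH2 (chromosome 18, 25530930 to 25757445), VIM (chromosome 10, 17270258 to 17279592), ZEB1 (chromosome 10, 31608101 to 31818742), SNAI2 (chromosome 8, 49830239 to 49833988), TWIST1 (chromosome 7, 19155091 to 19157295), TP63 (chromosome 3, 189349216 to 189615068) and KRT5 (chromosome 12, 52908361 to 52914243). Every listed region that came within 20 kb of 1 of these genes was taken, which gave 174 of the 335291 regions in all lists. By gene, there were 35 regions at TP63, 32 at CDH2, 31 at CDH1, 28 at ZEB1, 15 at TWIST1, 14 at KRT5, 11 at VIM and 8 at SNAI2. At the edge of the rule, 5 regions lay between 15 and 20 kb from a gene and 10 lay between 20 and 25 kb.

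The study immunoprecipitated chromatin with antibodies against EZH2, H3K27me3 and H3K27ac. Control cells carried plko.1, a lentiviral vector backbone, and knockdown cells (shEZH2) carried a lentivirus that lowers EZH2. All were LNCaP cells kept in serum, and the protocol gives fixation 2 to 3 days after infection, with no agent added to either group. Each antibody had 1 library in control and 1 in shEZH2, which leaves no replicate to judge a difference by, and every 95% interval below covers counting error only. In these bulk samples, fewer cells with a mark and less of the mark per cell cannot be told apart. The lists do not measure the amount of EZH2 in the cells.

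EZH2 is the methyltransferase subunit of Polycomb repressive complex 2, which places H3K27me3 on genes that a cell lineage keeps silent, often at starts rich in CpG dinucleotides. H3K27ac lies on the same lysine and marks active promoters and enhancers. E-cadherin, encoded by CDH1, holds epithelial cells together, and the transcription factors ZEB1, SNAI2 (Slug) and TWIST1 are known to repress it during epithelial-mesenchymal transition, when N-cadherin (CDH2) and vimentin (VIM) appear. TP63 and KRT5 mark the basal layer of the prostate epithelium, and are low in luminal cells. The title of the series concerns activation by EZH2 apart from Polycomb and methylation.

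The sequences around 4 of the gene starts are shown because Polycomb occupancy is known to follow CpG content. They run 5′ to 3′ from 250 bases before to 50 after a RefSeq start in GRCh38.p14, and capitals mark each CG. The RefSeq start may differ from the start of the hg19 interval used for the regions. Measured from the hg19 starts, the EZH2 peaks described below for CDH2 and VIM lay outside this span. The CG counts thus do not describe the sequence under those peaks. The table matched 5 of the 8 genes.
CDH2, chr18:28177081-28177380, minus strand: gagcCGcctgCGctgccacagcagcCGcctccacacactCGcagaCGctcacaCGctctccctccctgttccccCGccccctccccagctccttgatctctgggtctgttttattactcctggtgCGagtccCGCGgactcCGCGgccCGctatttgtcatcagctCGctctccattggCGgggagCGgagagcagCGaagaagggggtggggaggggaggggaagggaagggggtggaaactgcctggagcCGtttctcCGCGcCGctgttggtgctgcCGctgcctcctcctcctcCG
VIM, chr10:17227991-17228290, plus strand: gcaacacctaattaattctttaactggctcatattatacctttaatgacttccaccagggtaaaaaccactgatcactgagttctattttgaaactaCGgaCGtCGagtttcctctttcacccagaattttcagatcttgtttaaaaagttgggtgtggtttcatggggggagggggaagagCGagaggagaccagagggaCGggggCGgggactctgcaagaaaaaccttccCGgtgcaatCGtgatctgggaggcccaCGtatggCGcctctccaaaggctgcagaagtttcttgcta
TP63, chr3:189631139-189631438, plus strand: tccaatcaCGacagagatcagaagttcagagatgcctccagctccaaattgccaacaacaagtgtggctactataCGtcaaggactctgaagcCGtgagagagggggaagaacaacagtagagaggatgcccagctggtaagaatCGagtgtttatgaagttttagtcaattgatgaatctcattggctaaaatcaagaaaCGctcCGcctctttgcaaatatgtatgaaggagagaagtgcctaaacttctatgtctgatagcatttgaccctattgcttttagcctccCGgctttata
KRT5, chr12:52520345-52520644, minus strand: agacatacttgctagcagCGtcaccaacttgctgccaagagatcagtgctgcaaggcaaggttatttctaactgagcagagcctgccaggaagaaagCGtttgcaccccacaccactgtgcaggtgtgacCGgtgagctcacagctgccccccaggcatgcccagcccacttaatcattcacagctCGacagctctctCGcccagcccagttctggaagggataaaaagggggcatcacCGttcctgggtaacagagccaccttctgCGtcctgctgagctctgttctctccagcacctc
The CDH2 window held 23 CG dinucleotides, a number reached by 35.8% of 35116 RefSeq promoter windows of the same length. The VIM window held 10, and the TP63 and KRT5 windows held 7 each, against a median of 14 over all windows. The table has 7 starts for ZEB1, with 7 to 35 CG dinucleotides, and a further CDH2 start with 4. The E-box CAGGTG, the sequence that the SNAI and ZEB factors recognise, was searched on both strands. It was found in the KRT5 window and at 2 of the 7 ZEB1 starts, and in 20.6% of all windows.

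In control cells the genes fell into distinct chromatin patterns. CDH1 carried H3K27ac, no H3K27me3, and 1 weak EZH2 peak past its end. CDH2 carried EZH2 and H3K27me3 with no H3K27ac, and VIM, ZEB1 and TWIST1 carried EZH2 and H3K27me3 at or just inside their starts with some H3K27ac nearby. SNAI2 had H3K27ac, a weak EZH2 peak and a small H3K27me3 region upstream of its start, and TP63 and KRT5 had H3K27me3 with no EZH2 peak in either group. By the 20 kb rule, 6 of the 8 genes had EZH2 in control, 7 had H3K27me3 and 6 had H3K27ac. In shEZH2 these numbers were 5, 7 and 5. Over the genome, 19.6%, 26.5% and 31.2% of tiles of 40 kb held a control region of EZH2, H3K27me3 and H3K27ac, and 8.17%, 41.7% and 41.4% held a shEZH2 region. The windows around the genes ran from 42.2 to 306 kb, so the tiles are only a rough guide.

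Regions around the gene starts were counted in the same way. Within 2 kb of the start, EZH2 was listed at 5 of 8 genes in control and 5 in shEZH2, against 2.78% and 1.06% of tiles of 4 kb. H3K27me3 was listed there at 6 genes in each group, against 7.59% and 17.0% of tiles, and H3K27ac at 4 and 5 genes, against 6.66% and 11.7%. These tiles cover the genome and not gene starts, and the starts of other genes were not counted. Whether the numbers are particular to these genes was therefore not tested. The 5 genes with EZH2 were not the same in both groups. SNAI2 had a peak in control alone and CDH1 in shEZH2 alone, while CDH2, VIM, ZEB1 and TWIST1 had one in both.

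**Figure D1:**
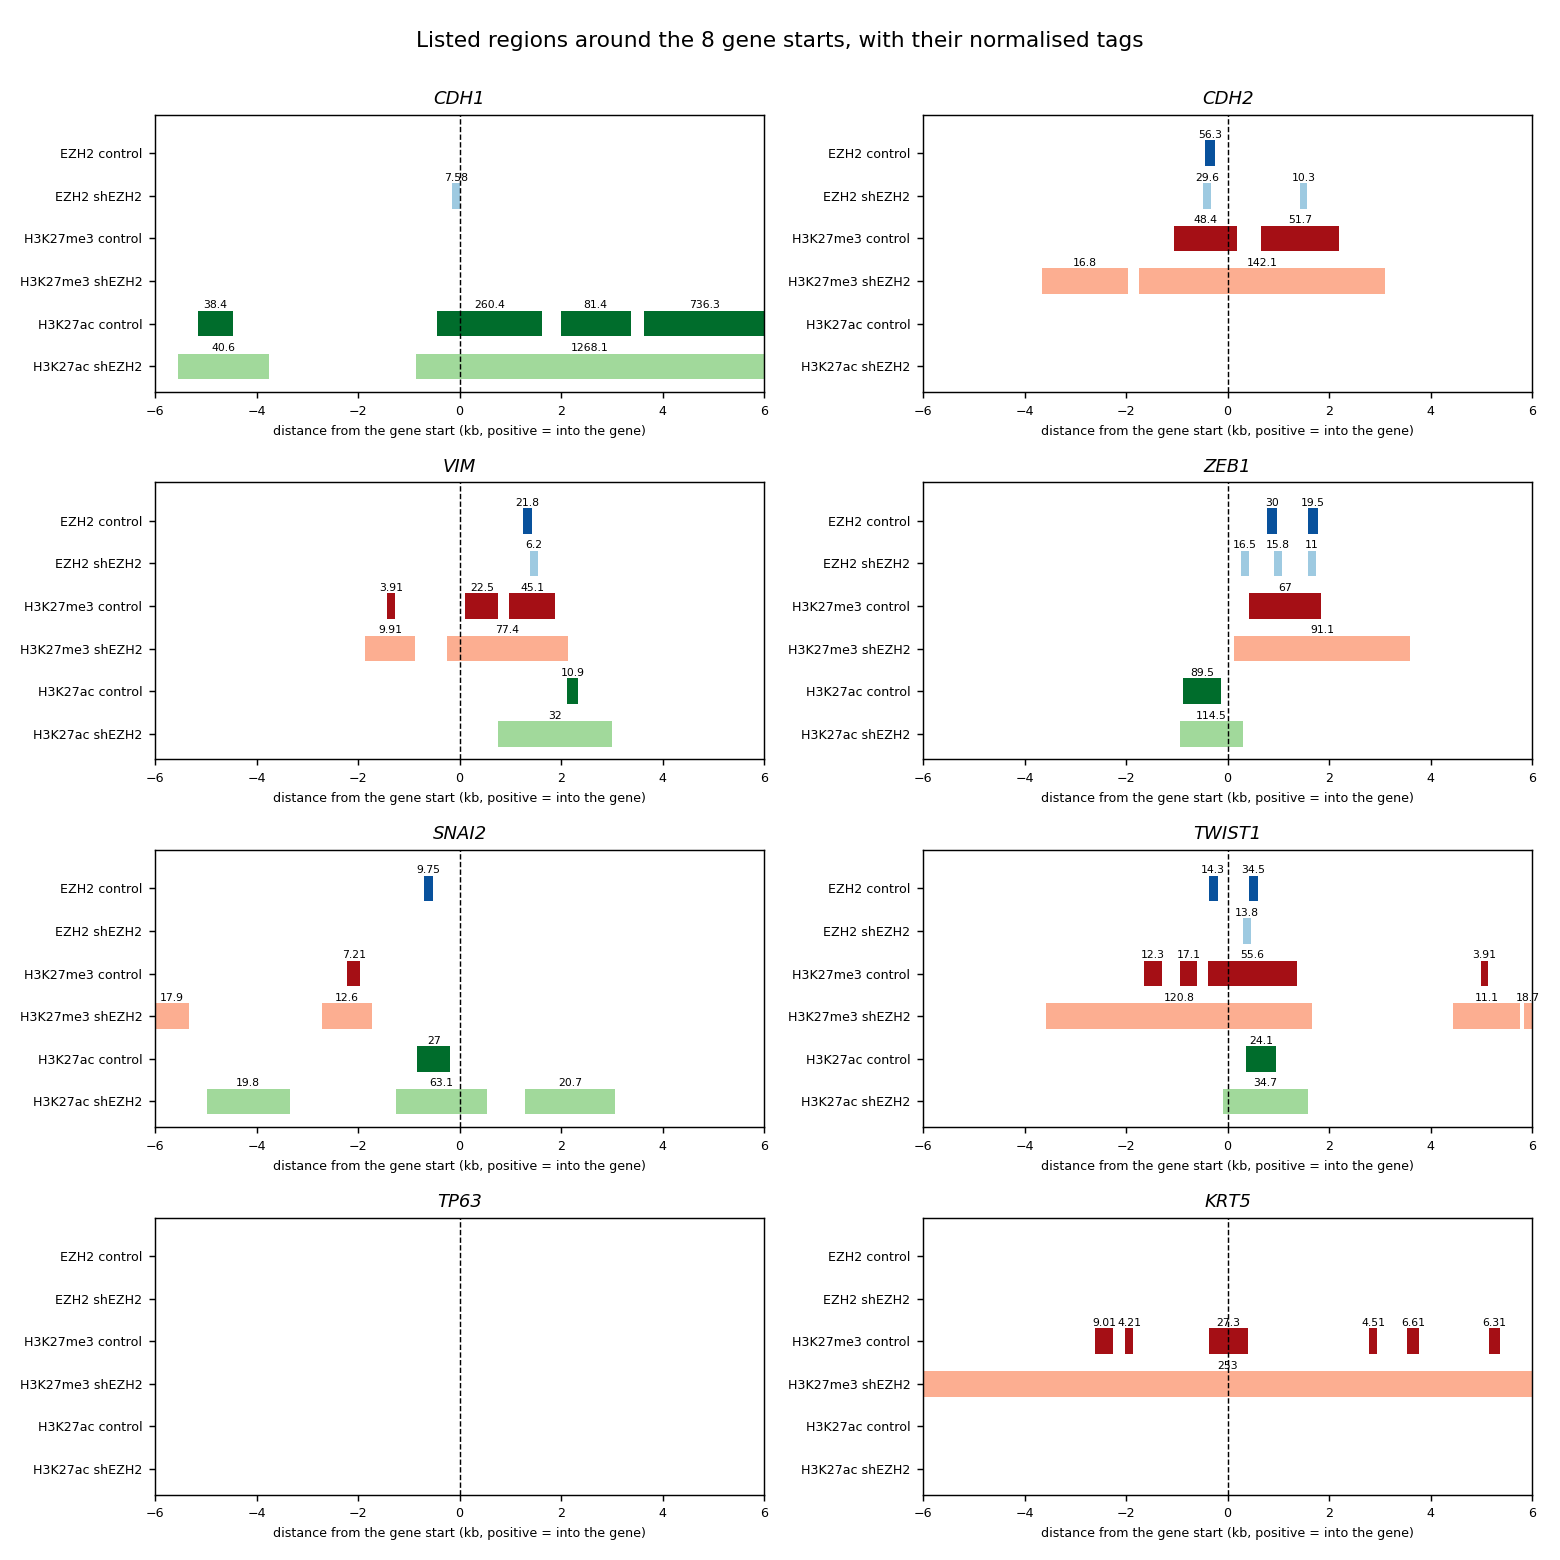
Regions listed within 6 kb of each gene start, drawn in the direction of transcription. The x axis is the distance in kb, each row is 1 library, each bar is a listed region (those reaching past 6 kb are cut there), and the number above it is its normalised tags over the whole region. H3K27me3 and EZH2 bars stand together at CDH2, VIM, ZEB1 and TWIST1, CDH1 has H3K27ac bars, and the TP63 panel is empty.

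The comparability of the groups differs between the antibodies. The values below are normalised tags: sequenced fragments counted in a region and expressed by the authors per 10000000 tags of that library. EZH2 peaks are windows of 183 bp in control and 151 bp in shEZH2. The histone lists were called with windows of 150 bp in control and 1000 bp in shEZH2. The tag density needed within 1 such window was 26.0 normalised tags per kb in control and 9.53 in shEZH2 for H3K27me3. For H3K27ac it was 34.4 and 9.47. A listed region can average less than its window threshold, as a control H3K27me3 region of 22.1 tags per kb at ZEB1 did. Totals of a histone region therefore tend to be higher in shEZH2 and densities lower, and a region was counted as lower or higher in shEZH2 only where its tags and its tags per kb went the same way.

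EZH2 was strongest at the start of CDH2, which encodes N-cadherin, the cadherin of mesenchymal and neural cells. It lay upstream in control, from -436 to -254 bp of the start (chromosome 18, 25757699 to 25757881), with 56.3 normalised tags. Only 2.01% of control EZH2 peaks held as many. The peak was 14.9-fold above its local background, per the authors' list. In shEZH2 the overlapping peak held 29.6 tags, 0.527 times the control value (95% interval 0.353 to 0.776) or 0.638 times per kb (0.428 to 0.941). A further shEZH2 peak of 10.3 tags, from 1421 to 1571 bp inside the gene, had no control counterpart. It was 4.39-fold above its local background, near the 4-fold that a call required. Its absence from the control list is thus not a measured difference.

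TWIST1 encodes a basic helix-loop-helix factor of mesoderm and neural crest. Its main control peak lay from 421 to 603 bp inside the gene (chromosome 7, 19156692 to 19156874) with 34.5 tags. The shEZH2 peak there held 13.8 tags, 0.399 times as many (0.224 to 0.689). The other control peak, from -374 to -192 bp, held 14.3 tags and was not listed in shEZH2. With 4.45-fold enrichment over its local background it was near the required 4-fold, so this absence is not a measured difference either.

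ZEB1 encodes a zinc-finger and homeodomain repressor of E-cadherin. Its control peaks from 783 to 965 bp and from 1591 to 1773 bp inside the gene held 30 and 19.5 tags. The shEZH2 peaks overlapping them held 15.8 and 11 tags, 0.528 times (0.302 to 0.904) and 0.565 times (0.283 to 1.09) the control values, and per kb both intervals reached past 1 (upper bounds 1.10 and 1.33). A shEZH2 peak of 16.5 tags from 268 to 418 bp had no control counterpart, so there is no control value to set against it. With it, the peaks within 2 kb of the ZEB1 start held 43.3 tags in shEZH2 and 49.5 in control. A weaker control peak of 7.5 tags lay 42612 bp inside the gene on a small H3K27me3 region and was not listed in shEZH2.

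VIM encodes vimentin, the intermediate filament of mesenchymal cells. Its main control peak lay from 1250 to 1432 bp inside the gene (chromosome 10, 17271508 to 17271690) with 21.8 tags. The shEZH2 peak held 6.2 tags, 0.285 times as many (0.119 to 0.618) and 0.345 times per kb (0.144 to 0.750). It was among the weakest of its list, in which 99.7% of peaks held as many tags or more, and its 9 tags were 1 short of the 10 that the list gives as its threshold. A weak peak of 7.5 tags from 24867 bp past the VIM start, beyond the gene's end, was not listed in shEZH2.

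SNAI2 encodes Slug. Its single control peak (chromosome 8, 49834506 to 49834688) held 9.75 tags from -700 to -518 bp of the start, on an H3K27ac region, and was not listed in shEZH2. CDH1 had no EZH2 peak near its start in control. A shEZH2 peak of 7.58 tags lay across the CDH1 start, from -139 to 11 bp, within H3K27ac. The control peak nearest to CDH1 held 9.0 tags and lay 106198 bp from the CDH1 start, on an H3K27ac region past the end of the gene, where TANGO6 is the next gene in RefSeq. TP63 and KRT5 had none. With control thresholds of 6.75 and shEZH2 thresholds of 6.89 normalised tags, peaks of 6 to 10 tags were close to the limit of detection, so their presence in 1 group is not a measured difference.

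**Figure D2:**
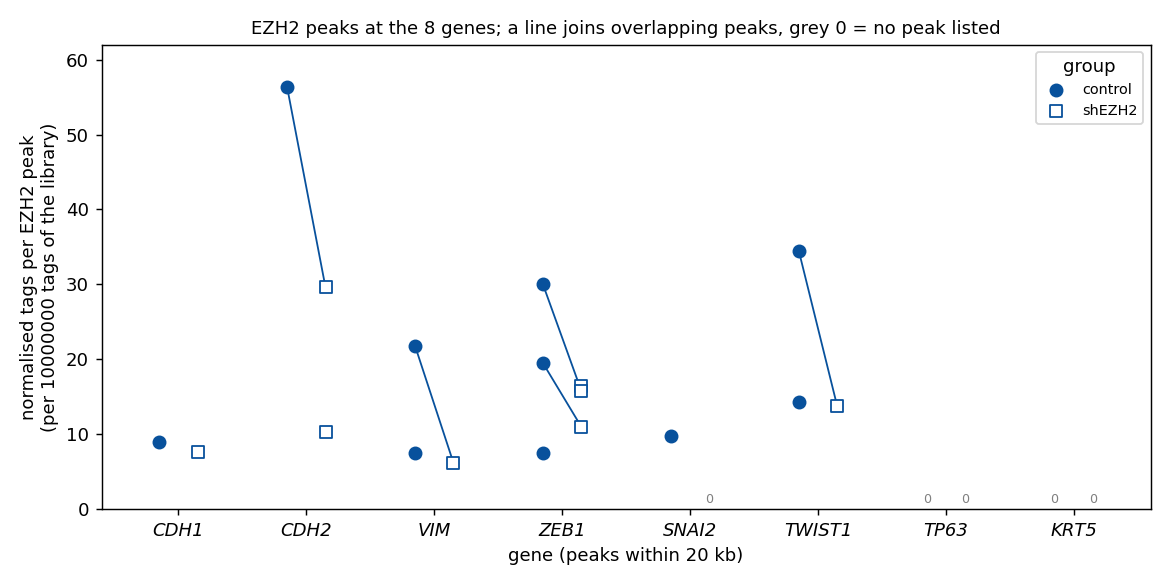
EZH2 peaks within 20 kb of each gene. The y axis gives normalised tags per peak, filled circles are control peaks, open squares are shEZH2 peaks, lines join overlapping peaks, and each point is 1 peak of 1 library. All 5 lines run downward on this scale, from 19.5 to 56.3 tags in control to 6.2 to 29.6 in shEZH2; 3 of the 5 turn slightly upward when each library is scaled to the tags in its listed peaks.

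Summed over the genes, there were 10 EZH2 peaks in control and 8 in shEZH2. The ratio was 0.800 with an interval of 0.274 to 2.25, and in the whole lists it was 0.412. In shEZH2, 5 of the 10 were called again (50%, exact interval 18.7 to 81.3), beside 23.1% of all control peaks. The share at the genes was 20% (2.52 to 55.6) when at least 50% of the control peak had to be covered, 31.2% (11 to 58.7) within 50 kb and 80% (28.4 to 99.5) within the genes themselves. In the other direction, 5 of the 8 shEZH2 peaks overlapped a control peak (62.5%, 24.5 to 91.5), beside 56.2% of all shEZH2 peaks. The 5 peaks called again were the 5 with at least 15 normalised tags, and none of the 5 weaker ones, with 7.5 to 14.3 tags, was. The background was 60.0% of 5531 control peaks with at least 15 tags and 11.5% of those under 15. The minimum of 15 was chosen after the values were seen. All 5 pairs held fewer tags in shEZH2 when scaled to the library total, though 3 of them did not when scaled to the tags in listed peaks, and 84.2% of all pairs in the list held fewer. Per kb, too, all 5 were lower, beside 71.2% of all pairs.

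The median log2 ratio of tags at the 5 pairs was -0.93, with values from -1.81 at VIM to -0.83 at ZEB1, and over all 5330 pairs it was -0.66. Pairs of the whole list with at least 15 control tags had a median of -0.96, so the pairs at these genes were close to other strong peaks. Scaling each library to the tags in its listed peaks adds 1.06 to every EZH2 log2 ratio and leaves -0.75 at VIM and -0.26 at TWIST1, but gives 0.13 at CDH2 and 0.13 and 0.23 at ZEB1. That scaling sets the total over listed peaks equal in both libraries. VIM and TWIST1 thus had lower ratios than CDH2 and ZEB1, with overlapping counting intervals.

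H3K27me3 accompanied EZH2 at the 4 mesenchymal genes with strong peaks. In control, 7 of the 10 EZH2 peaks overlapped H3K27me3, beside 44.2% of all control EZH2 peaks, and 3 overlapped H3K27ac, beside 34.4%. In shEZH2, 7 of 8 overlapped a shEZH2 H3K27me3 region (67.8% over the list) and 4 overlapped H3K27ac (39.7%). The control peaks off H3K27me3 were those at SNAI2, past the end of VIM and past the end of CDH1.

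At CDH2, control H3K27me3 regions of 48.4 and 51.7 tags lay from -1051 to 189 bp and from 664 to 2194 bp. The shEZH2 list had 1 region over both (chromosome 18, 25754342 to 25759196), with 142.1 tags in 4855 bp. The density was 36.1 tags per kb in control and 29.3 in shEZH2. The block thus held 1.42 times the control tags (1.22 to 1.65) over a wider region and 0.811 times the tags per kb (0.698 to 0.943).

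At TWIST1, 3 control regions near the start held 85.0 tags in 2434 bp and the shEZH2 region over them 120.8 tags in 5230 bp. At ZEB1, the control region from 430 to 1831 bp held 67.0 tags, and the shEZH2 region over it held 91.1 tags from 125 to 3598 bp. At VIM, control regions of 22.5 and 45.1 tags lay inside the gene, and the shEZH2 region over both held 77.4 tags in 2383 bp. The VIM block held 1.14 times the control tags with an interval that reached below 1 (0.942 to 1.39), and 0.740 times the tags per kb (0.609 to 0.898). ZEB1 further held a second H3K27me3 block from 41835 to 45849 bp inside the gene, with 13.2 tags in 387 bp of control regions and 70.9 tags in 4015 bp in shEZH2, around the weak control EZH2 peak. TWIST1 had a block from 8500 bp past its start, downstream of the gene, with 9.31 and 47.6 tags. Along the CDH2 gene, apart from the start, 7 control regions held 3.91 to 8.71 tags each. At none of these 4 starts did tags and tags per kb go the same way, so no direction of H3K27me3 could be given. The same held for 36082 of all 36496 shared H3K27me3 blocks.

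The densest shEZH2 H3K27me3 regions at the 8 genes lay at these starts. Of 71 shEZH2 regions, 3 reached the control threshold of 26.0 tags per kb, beside 1.62% of the whole shEZH2 list, and they were the regions at the starts of CDH2 (29.3), VIM (32.5) and ZEB1 (26.2). TWIST1 followed with 23.1. The other 68 regions averaged less than 26.0, but that threshold applied to windows of 150 bp, so parts of them may reach it. In shared blocks of the whole list with 1000 to 3000 bp of control regions, a range chosen after the values were seen, the median log2 ratio was 0.98 for tags and -0.76 per kb. The blocks at the starts had 0.51 and -0.30 at CDH2, 0.20 and -0.43 at VIM, 0.44 and -0.87 at ZEB1 and 0.51 and -0.60 at TWIST1.

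SNAI2 had little H3K27me3. Its control list held 1 region of 7.21 tags from -2214 bp of the start, and its shEZH2 list held regions of 12.6 and 17.9 tags upstream. CDH1 had no H3K27me3 region in either group, at thresholds of 3.91 normalised tags per 150 bp in control and 9.53 per 1000 bp in shEZH2.

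Of the basal genes, KRT5 had H3K27me3 across its start and TP63 only away from it. KRT5 encodes keratin 5, which forms the filaments of basal epithelial cells. In control, 7 regions held 62.2 tags in 2036 bp, led by a region of 27.3 tags across the start from -359 to 397 bp. In shEZH2, 7 regions held 584.2 tags in 38662 bp, of which 29127 bp lay within 20 kb of the gene. The control sum leaves out regions under the part beyond 20 kb, so these sums are not a like comparison. Within the window of 20 kb to either side of KRT5, 4.44% of the sequence was listed in control and 63.5% in shEZH2. These shares come from calling windows of 150 bp and 1000 bp, and the same shares over the genome were not computed. The whole gene lay within the largest shEZH2 region (chromosome 12, 52904988 to 52921381), which had 253 tags over 16394 bp. Its mean density over that width was 15.4 tags per kb, which cannot be set against the control threshold of 26.0 for windows of 150 bp. The 7 control regions inside it had 30.5 tags per kb. Its tags were 4.07 times those of the control regions (3.48 to 4.78) and its tags per kb 0.505 times (0.432 to 0.594). A shEZH2 region of 187.1 tags began 24791 bp past the KRT5 start and ran beyond the window. The 6 control regions under it, with 91.8 tags, lay more than 20 kb from KRT5.

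TP63 encodes p63, the transcription factor that maintains basal cells. The start of its hg19 interval had no region within 2 kb in any list. Any other start within the gene was not examined. In control, 11 H3K27me3 regions of 3.91 to 17.7 tags were scattered over the gene, and in shEZH2 there were 23 regions of 9.53 to 60.2 tags. The strongest in both groups lay together from 82636 to 91125 bp inside the gene. There, 2 blocks held 24.9 and 23.1 tags in control and 53.7 and 60.2 in shEZH2, with densities of 25.7 and 28.3 against 17.5 and 14.5 tags per kb. A control H3K27ac region of 5.73 tags past the end of TP63 was the only one at this gene and was not called in shEZH2.

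**Figure D3:**
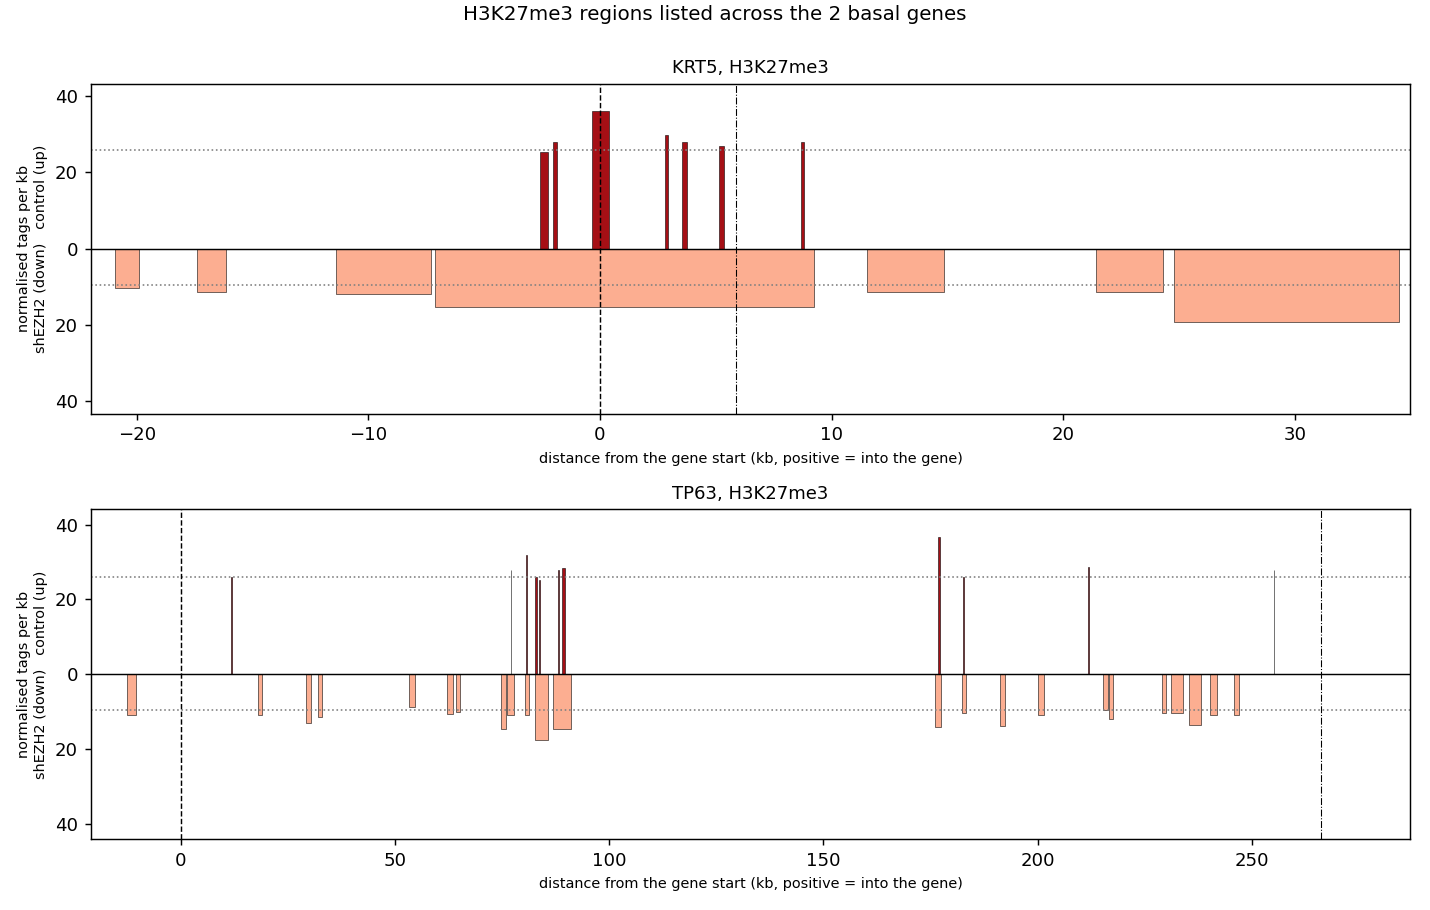
H3K27me3 regions within 20 kb of KRT5 (top) and TP63 (bottom). The x axis is the distance from the gene start in kb, and the height of a bar is its mean normalised tags per kb (control upward, shEZH2 downward). The dashed and dash-dot lines mark the gene's start and end. Dotted lines mark the density needed within 1 calling window, 26.0 in control (150 bp) and 9.53 in shEZH2 (1000 bp). KRT5 lies within 1 wide shEZH2 region of 15.4 tags per kb, while the strongest TP63 regions lie from 82.6 kb inside the gene.

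Across all genes, 38 of 44 control H3K27me3 regions (86.4%, 72.6 to 94.8) were called again in shEZH2, beside 94.1% of the whole control list. The 6 that were not held 3.91 to 5.41 tags each, with 3 at TP63, 2 at ZEB1 and 1 at CDH2. In the other direction 25 of 71 shEZH2 regions (35.2%) overlapped a control region, beside 36.8% of the whole shEZH2 list. Of 25 shared blocks, 24 held more tags in shEZH2 and all 25 held fewer tags per kb, beside 99.8% of all blocks. The median log2 ratio was 1.29 for tags and -1.16 per kb, against 1.63 and -1.06 over the list. Only 1 block was lower by both measures (0.967% of all blocks were). It lay upstream of CDH2, from -8475 to -7368 bp, where control regions held 16.2 tags and the shEZH2 region 13 tags. That ratio, 0.799, had an interval (0.504 to 1.25) that included 1. No block was higher by both measures, and 0.167% of all blocks were.

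H3K27ac was found mainly at CDH1. There the control list held 15 regions with 1828 tags in 16930 bp, and the shEZH2 list 14 regions with 2162 tags in 47380 bp. The other genes together held 5 control regions. The strongest control region (chromosome 16, 68774831 to 68779406) held 736.3 tags and lay from 3636 to 8211 bp inside CDH1. Only 0.907% of control H3K27ac regions held as many. The region across the start, from -453 to 1627 bp, held 260.4 tags.

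In shEZH2 a single H3K27ac region, from -863 to 13290 bp, covered the CDH1 start and the strongest part, and held 1268.1 tags. The 5 control regions within it held 1209.4 tags. The ratio of tags was 1.05 (0.991 to 1.11), and per kb it was 0.727 (0.687 to 0.770). A second strong block, from 38928 to 46020 bp inside the gene, held 365.3 tags in control and 336.0 in shEZH2. It was the only H3K27ac block at the 8 genes that was lower by both measures, which 15.1% of all shared H3K27ac blocks were, and its ratio of tags was 0.920 with an interval from 0.826 to 1.02. The block past the end of CDH1, toward TANGO6, held 134.8 and 149.7 tags. Weaker blocks inside the gene held more tags in shEZH2, among them 48.7 and 136.2 tags from 14675 bp, in regions that were wider there.

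**Figure D4:**
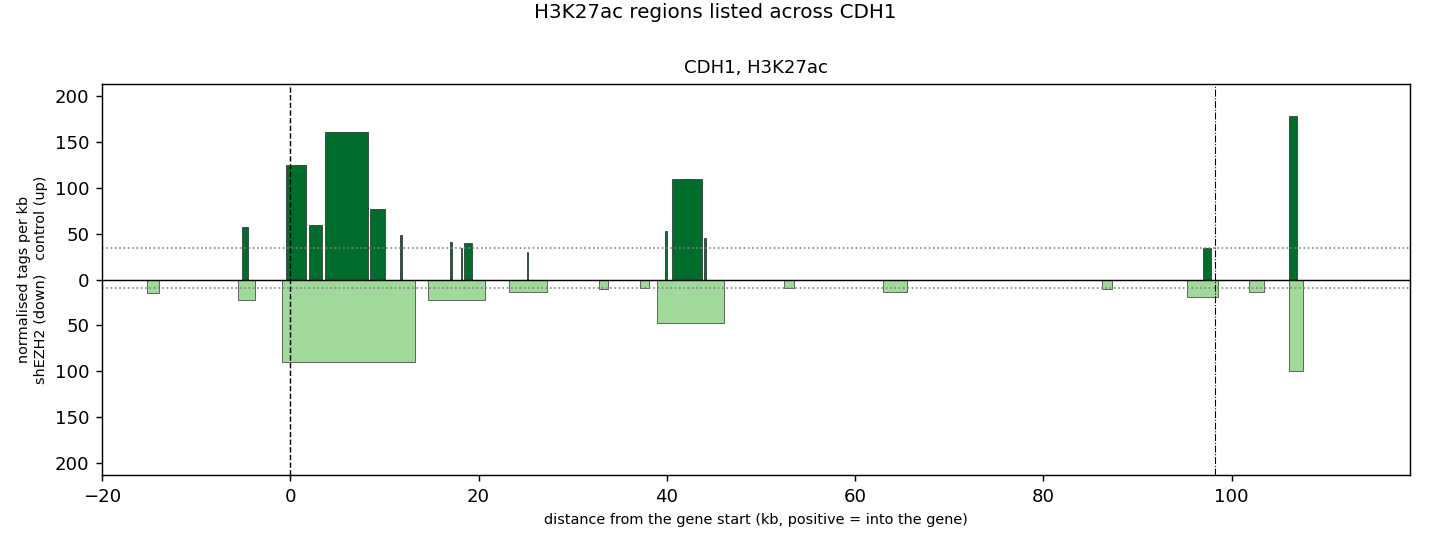
H3K27ac regions within 20 kb of CDH1. The x axis is the distance from the gene start in kb, and the height of a bar is its mean normalised tags per kb (control upward, shEZH2 downward). The dashed and dash-dot lines mark the start and end of the gene. Dotted lines mark the density needed within 1 calling window, 34.4 in control (150 bp) and 9.47 in shEZH2 (1000 bp). The regions at the start, around 40 kb inside the gene and past its end are strong in both groups.

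At the mesenchymal genes H3K27ac was weaker or absent, and in control it lay beside H3K27me3 at ZEB1 and VIM. The control region at ZEB1 held 89.5 tags upstream of the start, from -883 to -121 bp, and the H3K27me3 region began 430 bp inside the gene. In shEZH2 the H3K27ac region held 114.5 tags from -939 to 311 bp and the H3K27me3 region began at 125 bp, so the listed regions overlapped. The ZEB1 tags were 1.28 times the control value (1.04 to 1.57), and per kb 0.781 times (0.637 to 0.959).

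TWIST1 had H3K27ac and H3K27me3 on the same sequence in control. Its H3K27ac region of 24.1 tags, from 360 to 951 bp, lay inside its H3K27me3 region and under its main EZH2 peak, and in shEZH2 held 34.7 tags in 1664 bp. It was the only 1 of the 20 control H3K27ac regions to touch H3K27me3. The share of the whole control H3K27ac list that does so was not counted, so whether this is usual was not tested. In a bulk sample, both marks on the same chromosomes and each mark in a share of the cells cannot be told apart.

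At SNAI2 the control H3K27ac region held 27 tags from -830 to -187 bp, and the shEZH2 region over it held 63.1 tags from -1245 to 535 bp. The tags were 2.34 times the control value (1.67 to 3.33) and the tags per kb 0.847 times (0.605 to 1.21). The SNAI2 density was thus 41.9 tags per kb in control and 35.4 in shEZH2, the smallest fall in density of any H3K27ac block at these genes. At VIM a control region of 10.9 tags lay from 2114 to 2342 bp inside the gene, just past the H3K27me3, and the shEZH2 region over it held 32 tags. The shEZH2 H3K27ac regions nearest the starts of VIM, ZEB1 and TWIST1 overlapped shEZH2 H3K27me3 regions, with the wider calls of that group. A further shEZH2 region at VIM, of 25.7 tags from -8370 to -6553 bp, did not, and it had no control counterpart. CDH2 and KRT5 had no H3K27ac in either group.

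Of the 20 control H3K27ac regions, 19 (95.0%, 75.1 to 99.9) were called again, beside 97.0% of the control list. In the other direction 11 of 21 shEZH2 regions overlapped a control region (52.4%, beside 59.0%). Of 11 shared blocks, 10 held more tags in shEZH2, while 15.1% of all blocks held fewer, and all 11 held fewer tags per kb, beside 99.3%. The median log2 ratio was 0.53 for tags, which was also the median over the list, and -0.88 per kb, against -1.0. No block was higher by both measures (0.689% of all blocks were).

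**Figure D5:**
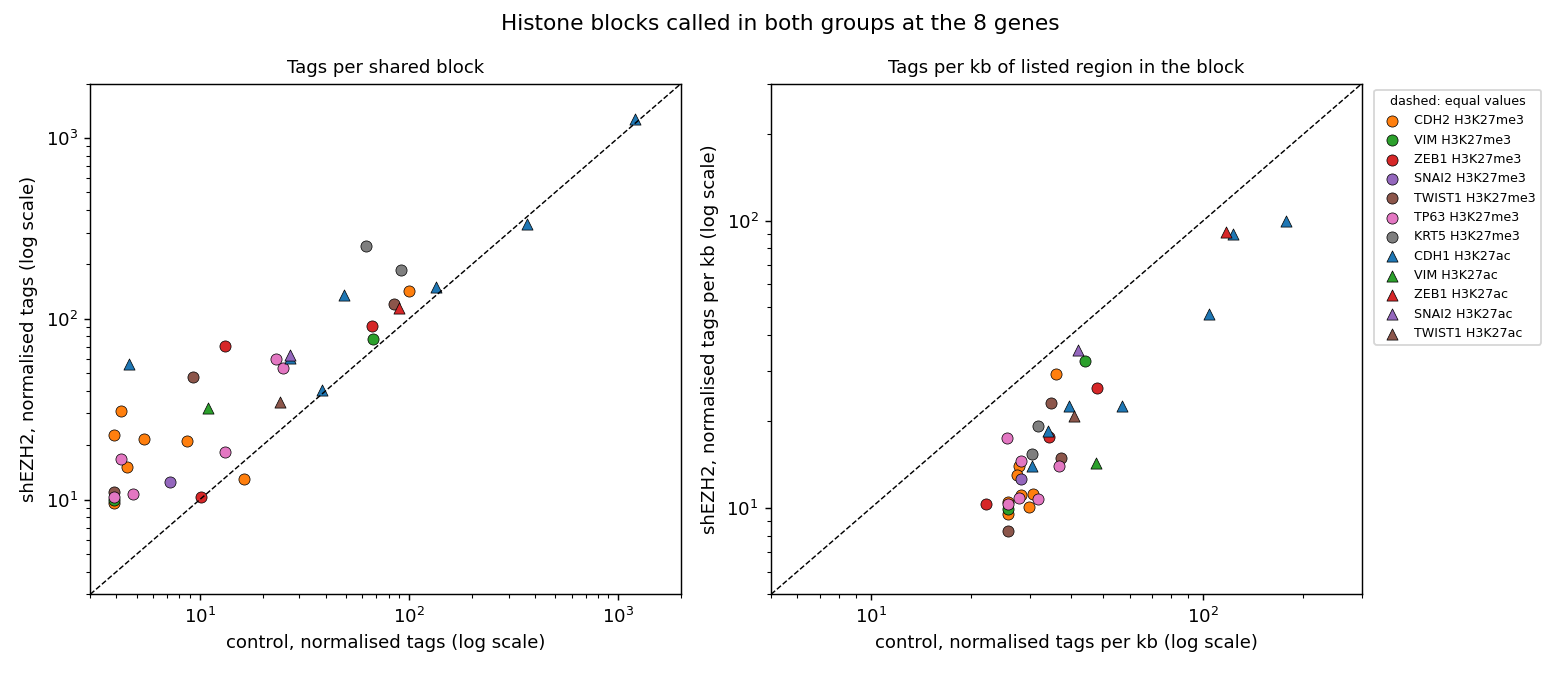
Shared H3K27me3 (circles) and H3K27ac (triangles) blocks at the 8 genes, control on the x axis and shEZH2 on the y axis, both on log scales. The left panel gives normalised tags per block and the right panel normalised tags per kb; each point is 1 block, coloured by gene, and the dashed line marks equal values. In the left panel 34 of 36 points lie above the line and in the right panel all 36 lie below it.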

How the data were processed

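The submitters' processing notes name BWA 0.6.1, HOMER 4.1 and hg19. Per the file headers, HOMER called each library alone and no input library is named. For EZH2, windows of 1 size per library had to pass a false discovery rate of 0.001 and 4-fold enrichment over the surrounding 10000 bp. For the histone marks, the threshold was a false discovery rate of 0.001 in control and a Poisson probability of 0.001 in shEZH2. The deposited signal is the tags per region scaled by the authors to 10000000 tags. The deposited score was used only in alternatives, and the deposited fold over local background was quoted for some EZH2 peaks. The deposited focus fraction, clonal ratio and local p-value were not used. The libraries held 13331155 (EZH2 control), 14514395 (EZH2 shEZH2), 33289172 (H3K27me3 control), 26241104 (H3K27me3 shEZH2), 17438009 (H3K27ac control) and 22175405 (H3K27ac shEZH2) tags.

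Samples were grouped by title, and 3 further samples were not analysed here. Overlap meant at least 1 bp. Overlapping regions of both groups were joined into blocks. Shares have Clopper-Pearson intervals. Ratios have exact binomial intervals for the split of the tags, after scaled tags were turned back into whole tags with the library total. No p-value was computed. The naming rule took, for each gene and list, the region of most tags and the one nearest the start, and blocks that fell or rose by both measures. The members and lists were chosen with earlier results of these data known. Other pathway genes were not located, as no hg19 annotation was used, and exons and introns were not assigned. Strands come from RefSeq's promoter table or, for CDH1, SNAI2 and TWIST1, from general knowledge. The overlap and block code was tested on simulated lists made from the control regions, with nearly the same widths. The wider histone calls of shEZH2 were not simulated. Alternatives changed the distance, overlap, score, minimum signal, scaling, division by width and genes included. Scripts used pandas 2.3.3 and numpy 2.4.6 in Python 3.11.15, with intervals from scipy 1.17.1 and plots from matplotlib 3.10.9.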

Additional observations from a re-analysis of the deposited data

How the results depend on the processing

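With 1 library per group and peaks as the only units, the intervals say nothing of the spread between cultures. The ratio of EZH2 peak numbers, 0.800, was 1.40 within the genes themselves (5 and 7 peaks) and 0.5 within 50 kb (16 and 8 peaks). The share of H3K27ac regions called again was 100% within the genes and within 5 kb, and 50% when each list was reduced to its upper 50% of scores. The score did not rank these regions by tags, so the 50% is not the share among the stronger regions. At CDH1 the control region of 736.3 tags scored 9, and one of 8.03 tags scored 13. Per kb, the median log2 ratio was -0.65 for EZH2, -1.16 for H3K27me3 and -0.88 for H3K27ac, so that both histone medians changed sign. Scaled to the tags in listed regions, it was 0.13 for EZH2 and -0.07 for H3K27me3, both reversed, and 0.17 for H3K27ac (-0.29 to 1.2). Within the genes themselves the H3K27ac median was 1.16. The cause of these changes was not tested. Leaving out each gene in turn gave 42.9% to 55.6% of EZH2 peaks called again, ratios of peak numbers of 0.667 to 0.889, 83.8% to 90.9% of H3K27me3 and 80.0% to 100% of H3K27ac regions called again, and median log2 ratios of -1.32 to -0.93 for EZH2, 1.15 to 1.31 for H3K27me3 and 0.44 to 0.88 for H3K27ac, the last without CDH1. Of 97 alternatives in all, 5 turned a direction, those within the genes, per kb and by listed tags above. That count is not a measure of stability. The shares called again have no direction to turn, and leaving out a gene with no region for a result repeated its main value. No paired analysis was possible because each group compared had 1 library.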

Other observations

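Just outside the 20 kb rule, the first H3K27me3 region of shEZH2 lay 21.8 kb from KRT5 and held 379.6 normalised tags, more than any H3K27me3 region inside the rule. The first such control region lay 20.8 kb from KRT5 and held 4.51 tags. Each was only the first of its own list, called with windows of 1000 bp in shEZH2 and 150 bp in control. Whether the 2 overlap was not examined, so their tags are not a comparison. KRT5 lies within a cluster of type II keratin genes.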
